A study of Mus musculus with 8 samples.

Results

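The 10 genes described here encode secreted proteins of the extracellular matrix. Decorin (Dcn), lumican (Lum), biglycan (Bgn), osteoglycin (Ogn) and fibromodulin (Fmod) are small leucine-rich proteoglycans. Periostin (Postn), SPARC (Sparc), SPARC-like 1 (Sparcl1), thrombospondin 1 (Thbs1) and thrombospondin 2 (Thbs2) are matricellular proteins. They were taken as a named list and found through the RefSeq accession of each array probe. All 10 had a probe, 11 probes in all, among 17549 named genes and 26460 genes and unnamed transcripts tested. Each of the 10 passed the filter on dim probes, which asked for a signal well above background on at least 2 of 8 arrays.

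RNA came from 3T3-L1 cells, a mouse preadipocyte line that turns into fat cells when confluent cultures receive a hormone mix. Unmodified cells (WT) were compared with cells stably transfected with slincRAD-shRNA-8 (sh8), a short hairpin aimed at slincRAD, a long noncoding RNA. Cells of both lines grew in 10% newborn calf serum and were sampled at days -2, 0, +2 and +4, where day 0 is confluence. From day 0 the medium of both held insulin at 167 nM, dexamethasone at 1 µM and isobutylmethylxanthine at 0.5 mM. There was 1 Agilent one-colour array for each combination of line and day, hence no replicates. The sh8 line carries a single hairpin, the labels name no control hairpin, and whether the line is 1 clone is not given. The level of slincRAD itself was not analysed here.

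Small leucine-rich proteoglycans share a core of leucine-rich repeats, and several carry chondroitin, dermatan or keratan sulphate chains. They bind collagen and govern the width and spacing of its fibrils, and decorin and biglycan also bind TGF-beta. Matricellular proteins are secreted into the matrix but act mainly on cells, through integrins and other receptors, rather than as scaffold. Preadipocytes make a fibroblast-like matrix, which is remodelled as they become fat cells. SPARC is known as an inhibitor of adipogenesis.

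RefSeq promoter windows (GRCm38.p6) were at hand for 6 of the 10 genes, Bgn, Ogn, Fmod, Postn, Sparc and Thbs2. Those of Postn and Ogn are shown because Postn had the greatest line difference among these 6 genes and Ogn the greatest difference between day +2 and day 0. Each run is the 250 bases before an annotated start, read 5′ to 3′ on the gene's own strand, and capitals mark the motif matches described after it. Postn has 2 annotated starts, and the window of its second start is printed, chr3:54360857-54361106 on the plus strand. The window of Ogn is chr13:49607765-49608014, also on the plus strand.
Postn: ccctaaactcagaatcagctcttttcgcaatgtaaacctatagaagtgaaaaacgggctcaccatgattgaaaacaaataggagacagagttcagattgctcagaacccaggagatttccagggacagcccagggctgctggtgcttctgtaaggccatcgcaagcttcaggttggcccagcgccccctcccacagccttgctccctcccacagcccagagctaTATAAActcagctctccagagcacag
Ogn: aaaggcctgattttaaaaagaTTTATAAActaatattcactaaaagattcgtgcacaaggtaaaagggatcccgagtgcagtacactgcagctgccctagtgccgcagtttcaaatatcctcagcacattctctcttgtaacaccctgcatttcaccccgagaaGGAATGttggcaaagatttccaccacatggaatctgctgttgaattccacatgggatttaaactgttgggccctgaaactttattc

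In the Postn window the capitals are a TATA box (TATAAA) from -26 to -21, where -1 is the base just before the start. In the Ogn window they are TATAAA on both strands, 2 overlapping matches between -229 and -222, and the TEAD motif GGAATG from -86 to -81. Both strands were searched for 5 motifs, chosen by hand. TATAAA was found in 12.4% of all 32851 such windows, GGAATG in 12.6%, the AP-1 motif TGANTCA in 6.75%, the Sp1 motif GGGCGG in 32.7% and the E-box CACGTG in 6.02%. Among the other windows, that of Bgn held 3 matches of GGGCGG and that of Thbs2 held 1 of TATAAA. The windows of Fmod, Sparc and the first start of Postn held none of the 5 motifs. The GC content was 42% for Ogn and 52% for the printed window of Postn, against a median of 52.4% over all windows. A match describes the letters and not a bound site.

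Levels are log2 intensities relative to the 75th percentile of the same array, so 0 is that percentile and a difference of 1 is 2-fold. They compare a probe with itself across arrays, not 1 gene with another. The 75th percentile of intensity lay between 761 and 1242 on the 8 arrays, the share of probes well above background between 64.9% and 81.7%, and no spot was saturated. Days -2 and 0 of both lines were read in 1 scan and days +2 and +4 in another, so day +2 against day 0 also compares scans. All 11 measured markers of preadipocytes and fibroblasts were well above background on all 8 arrays. The arrays of the later scan stood apart in other markers. All 14 measured lung epithelium markers were well above background on each of them, against 5 to 8 on the arrays of days -2 and 0. Their median level was -6.09 to -5.52 at days -2 and 0 and -0.73 to -0.02 at days +2 and +4. Their summed level, in multiples of the 75th percentile, ran from 8.80 to 11.1 and then from 23.0 to 35.9. The 6 measured red blood cell markers had medians of -7.96 to -7.40 and then -0.89 to -0.13. For the 12 endothelial markers the medians were -5.84 to -4.23 and then -2.65 to -1.80. In RNA of mixed cells, fewer cells of a type and less RNA per cell cannot be told apart. With 1 array per line and day, p-values here measure how a difference between lines varied over days, or a difference between days over lines. Below, genes without overlap between the lines, or between earlier and later arrays, are described singly. How many of all genes tested were like that was not counted.

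The comparison of sh8 with WT asked which of these genes differed between the lines over the whole time course. Sparcl1, Lum, Postn and Dcn were lower in sh8, 13.2-fold, 5.82-fold, 5.21-fold and 2.07-fold, and Sparc was higher, 1.39-fold. Lower levels thus passed the test in 4 of 10 genes, against 10.3% of all genes and transcripts tested, and higher levels in 1 of 10, against 16.8%. Bgn, Ogn, Fmod, Thbs1 and Thbs2 did not pass. The median difference was -0.0046 on the log2 scale over the 10 genes and 0.13 over everything tested. The calls came from limma with p-values adjusted by Benjamini and Hochberg over all 26460, at a threshold of 0.05, with day as a factor and 4 arrays in each line. None of the 5 calls remained when day +2 or day +4 was left out. That of Sparcl1 alone remained without day 0 or when scan replaced day as the block. Without day -2 all but that of Sparc remained. Summed marker levels, in multiples of the 75th percentile, also differed between the lines, but only the adipocyte and leukocyte ranges did not overlap. The summed level of the 12 adipocyte markers was 36.4 to 70.7 in WT and 12.1 to 26.9 in sh8. From 6 to 11 of them were well above background, and Lep on no array. Lpl and Fabp4 were the highest of them on every array, and both were lower in sh8 on all 4 days. The median log2 level of the 12 was instead higher in sh8 at days -2, 0 and +2. It was -5.03, -4.57 and -3.63 there, against -5.21, -4.97 and -4.15 in WT. At day +4 it was lower, -3.59 against -2.33. The summed level of the 6 mesothelium markers was 2.6 to 6.42 in WT and 6.06 to 17.2 in sh8. From 2 to 4 of them were well above background, and Lrrn4 and Upk1b on no array. Msln alone had log2 levels above 0, at 1.28 to 2.65 in WT and 2.45 to 4.09 in sh8. The median of the 6 was lower in sh8 at day -2 (-7.05 against -6.77) and higher on the other days. The 11 preadipocyte and fibroblast markers summed to 547 to 708 in WT and 648 to 802 in sh8, and the 11 leukocyte markers to 6.04 to 6.90 and 7.84 to 9.04. Single preadipocyte and fibroblast markers differed in direction. Pdgfra, Pdgfrb and Dlk1 were lower in sh8 on all 4 days. Cd34, Thy1, Ly6a, Col1a1, Col1a2 and S100a4 were higher on all 4, and Col3a1 and Vim were mixed. The median of the 11 was lower in sh8 at day 0 (6.09 against 6.18) and higher on the other days. Endothelial markers summed to 1.78 to 5.04 and 2.43 to 6.10, and red blood cell markers to 0.477 to 4.68 and 0.736 to 6.65. The adipocyte sum was lower in sh8 on all 4 days, and the 5 sums given after it were higher. Smooth muscle and lung epithelium markers had no such single direction. The smooth muscle sum was higher in sh8 except at day +2, when it was 45.6 against 48 in WT. The lung epithelium sum was lower in sh8 at days -2 and 0 and higher at days +2 and +4. Lamp3, the highest of these markers at days -2 and 0, was lower in sh8 on all 4 days. The median of the list was instead higher in sh8 at day -2 (-5.65 against -6.09) and lower at day 0 (-5.66 against -5.52). The part of these markers in the line differences was not tested.

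**Figure D1:**
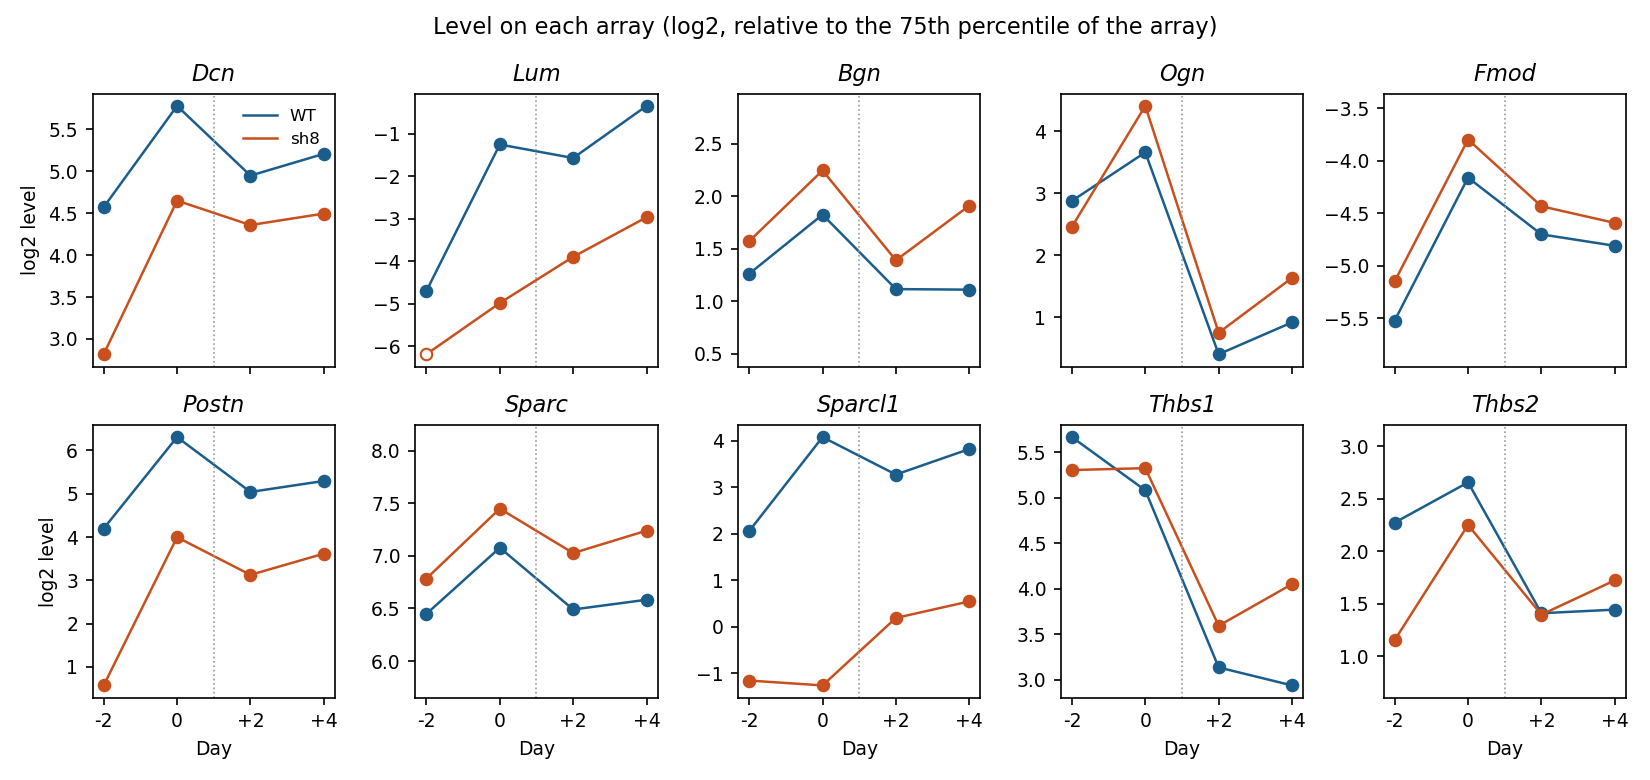
Level of each gene on each of the 8 arrays by day (log2, relative to the 75th percentile of the array; each panel has its own axis), with WT in blue and sh8 in orange. The open point (Lum, sh8, day -2) was not well above background, and the dotted line separates the arrays of the earlier and the later scan. The lines do not overlap for Postn and Sparcl1, and Ogn and Thbs1 are low in both lines at days +2 and +4. How many of all genes tested did likewise was not counted.

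Among the proteoglycans, decorin binds collagen and holds TGF-beta in the matrix. In WT cells the log2 level of Dcn was 4.57 at day -2, 5.78 at day 0, 4.95 at day +2 and 5.21 at day +4. In sh8 cells it was 2.82, 4.65, 4.36 and 4.50 on the same days. Dcn was lower in sh8 on every day, most at day -2, although the ranges of the lines overlapped because the sh8 array of day 0 exceeded the WT array of day -2. The fitted difference was -1.05 ± 0.22 (SE; adjusted p = 0.0306). By day it was -1.75, -1.13, -0.59 and -0.71, so that Dcn was 3.37-fold lower at day -2 and 1.64-fold lower at day +4.

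Lumican, a keratan sulphate proteoglycan that regulates collagen fibrils, was dim at day -2. Its log2 level in WT was -4.70, -1.25, -1.57 and -0.34 from day -2 to day +4. In sh8 it was -6.19, -4.98, -3.90 and -2.97, and the day -2 value was not well above background. Lum was higher on each later sh8 array than on the one before, and its highest sh8 level was still below the WT levels of days 0, +2 and +4. The fitted difference was -2.54 ± 0.37 (adjusted p = 0.017). At day -2 Lum was at least 2.11-fold lower in sh8, with the lowest signal among probes well above background on that array as the bound. At days 0, +2 and +4 it was 13.3-fold, 5.01-fold and 6.15-fold lower.

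Biglycan is the closest relative of decorin and carries chondroitin or dermatan sulphate chains. The WT log2 levels of Bgn were 1.26, 1.83, 1.12 and 1.11, and the sh8 levels 1.57, 2.25, 1.39 and 1.91. Bgn was higher in sh8 on all 4 days, by 0.27 to 0.80, with overlapping ranges. The difference of 0.45 ± 0.13 did not pass (adjusted p = 0.0553). It passed with quantile scaling, with normexp background correction, with the authors' deposited values and with probes well above background on all 8 arrays, where the lowest adjusted p was 0.0303. Decorin and biglycan thus lay on opposite sides of 0 on each day.

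Osteoglycin, also called mimecan, is a small keratan sulphate proteoglycan of connective tissue. The log2 level of Ogn was 2.88 and 3.66 in WT at days -2 and 0, then 0.40 and 0.92 at days +2 and +4. In sh8 it was 2.46 and 4.41, then 0.75 and 1.64. Both lines were high at days -2 and 0 and low afterwards, without overlap between the earlier and later arrays. The line difference of 0.35 ± 0.23 did not pass (adjusted p = 0.289).

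Fibromodulin, which binds collagen and takes part in its cross-linking, gave a dim signal, with intensities of 27.0 to 67.6. Its log2 levels were -5.52, -4.16, -4.70 and -4.81 in WT and -5.15, -3.80, -4.43 and -4.59 in sh8. Fmod was higher in sh8 on all 4 days, by 0.22 to 0.37, but the ranges overlapped. The difference of 0.31 ± 0.09 did not pass (adjusted p = 0.0601). It shrank to 0.04 with quantile scaling (adjusted p = 0.811) and with the authors' deposited values (adjusted p = 0.809). With only probes well above background on all 8 arrays it passed (adjusted p = 0.0343).

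Among the matricellular proteins, periostin binds integrins and collagen and supports collagen cross-linking. In WT the log2 level of Postn was 4.20, 6.31, 5.04 and 5.30 from day -2 to day +4. In sh8 it was 0.57, 4.00, 3.13 and 3.62. Every sh8 array was below every WT array, and the sh8 array of day -2 stood 2.55 below the next. The fitted difference was -2.38 ± 0.35 (adjusted p = 0.017). Day by day it was -3.62, -2.31, -1.92 and -1.68, which is 12.3-fold lower at day -2 and 3.20-fold lower at day +4.

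SPARC binds collagen and calcium and loosens the contact of cells with the matrix, and Sparcl1 (also called hevin) is its closest relative. The WT log2 levels of Sparcl1 were 2.06, 4.08, 3.27 and 3.82. The sh8 levels were -1.16, -1.26, 0.19 and 0.55, all below the lowest WT array by at least 1.51. The fitted difference was -3.73 ± 0.43 (adjusted p = 0.0128), and on single days it was -3.21, -5.34, -3.08 and -3.28. The greatest difference, 40.5-fold at day 0, fell on the day when WT was highest and sh8 lowest.

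Sparc differed the other way and far less. It had log2 levels of 6.45, 7.08, 6.49 and 6.58 in WT and of 6.78, 7.45, 7.03 and 7.24 in sh8. Sparc was higher in sh8 on all 4 days, although the WT array of day 0 exceeded 2 sh8 arrays. The fitted difference was 0.48 ± 0.10 (adjusted p = 0.0315). A second Sparc probe gave 0.41 ± 0.11 (adjusted p = 0.0492).

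Thrombospondins 1 and 2 are trimeric glycoproteins that bind CD36, CD47 and integrins, and thrombospondin 1 can activate latent TGF-beta. The log2 level of Thbs1 was 5.67, 5.08, 3.14 and 2.94 in WT and 5.30, 5.32, 3.59 and 4.05 in sh8. Both lines were high at days -2 and 0 and low at days +2 and +4, without overlap between those pairs of days. Between the lines the difference of 0.36 ± 0.25 did not pass (adjusted p = 0.314), and its sign turned, to -0.06, on the arrays of the earlier scan alone. Thbs2 had levels of 2.27, 2.65, 1.41 and 1.44 in WT and of 1.15, 2.25, 1.40 and 1.72 in sh8. Thbs2 was lower in sh8 at days -2, 0 and +2, by as little as 0.01 at day +2, and higher at day +4. Its line difference of -0.31 ± 0.25 did not pass (adjusted p = 0.374) and turned to 0.13 on the arrays of the later scan alone.

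**Figure D2:**
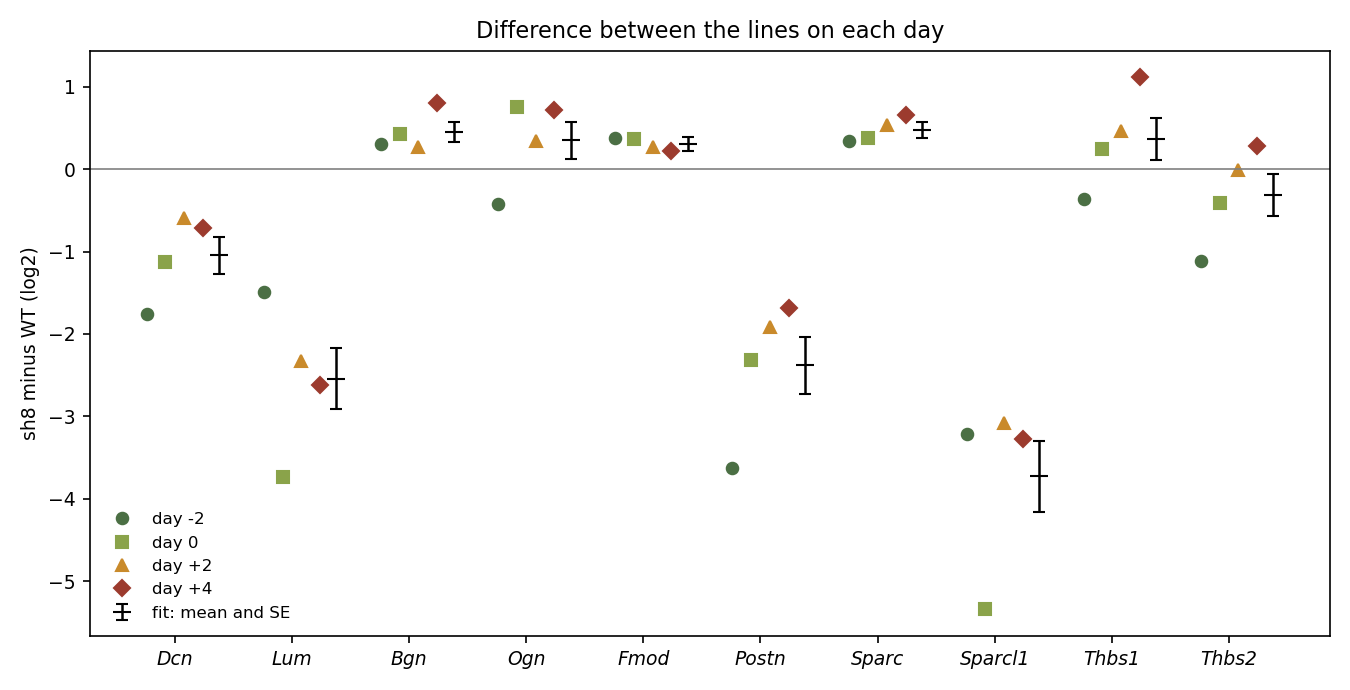
Difference between sh8 and WT on each day for each gene (log2; coloured symbols, 1 pair of arrays each) and the fitted difference over the 4 days with its SE (black bar). Dcn, Lum, Postn and Sparcl1 lie below 0 on all 4 days, and Bgn, Fmod and Sparc above 0. The day -2 value of Lum rests on an sh8 array that was not well above background.

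Single days have 1 array per line and no test, so genes that were at least 2-fold apart are counted. At day -2, 5 of the 10 genes were lower in sh8 by that measure (Dcn, Lum, Postn, Sparcl1 and Thbs2), against 4.75% of all genes and transcripts, and 0 were higher, against 5.54%. At day 0, 4 were lower (Dcn, Lum, Postn and Sparcl1), against 4.9%, and 0 higher, against 6.89%. At day +2, 3 were lower (Lum, Postn and Sparcl1), against 5.51%, and 0 higher, against 14.1%. At day +4 the same 3 were lower, against 5.23%, and Thbs1 was 2.16-fold higher, against 9.55%. Lum, Postn and Sparcl1 were thus counted on all 4 days and Dcn on days -2 and 0.

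The next comparison asked whether the line difference itself differed between days +2 and +4 and days -2 and 0. These pairs of days lie in different scans, so induction and scan cannot be told apart here. None of the 10 genes passed, and neither did anything else tested (0%). With normexp 1294 of all 26460 passed, and with probes well above background on all 8 arrays 1115 of 19780, but again none of the 10 genes. Without adjustment, Dcn and Thbs2 had p under 0.05, as did 5259 of all 26460. The line difference of Dcn was 0.79 ± 0.27 less negative at days +2 and +4 (adjusted p = 0.241). For Thbs2 the change was 0.89 ± 0.31 (adjusted p = 0.248), for Thbs1 0.85 ± 0.35 (adjusted p = 0.296) and for Postn 1.17 ± 0.50 (adjusted p = 0.305). Sparcl1 gave 1.1 ± 0.79 (adjusted p = 0.483).

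The step from day -2 to day 0 compares growing with confluent cultures. In both lines 8 of the 10 genes had higher levels at day 0, the exceptions being Sparcl1 and Thbs1. How many of all genes tested were higher in both lines was not counted. None of the 10 passed the test (0% of all tested). Of the 10 genes 7 had an unadjusted p under 0.05, as did 6726 of all 26460, and the lowest adjusted p in the whole table was 0.0543. The median difference was 1.16 over the 10 genes and 0.08 over all tested. Postn was 2.11 higher at day 0 in WT and 3.42 higher in sh8, a fitted 2.77 ± 0.49 (adjusted p = 0.0737). Dcn was 1.21 higher in WT and 1.83 higher in sh8 (1.52 ± 0.31, adjusted p = 0.086). For Fmod the values were 1.36 and 1.35 (1.36 ± 0.13, adjusted p = 0.0543). Lum was 3.45 higher in WT and 1.21 higher in sh8 (2.33 ± 0.52, adjusted p = 0.0929), and Ogn 0.78 and 1.95 (1.37 ± 0.32, adjusted p = 0.0984). Sparcl1 was 2.02 higher in WT but 0.10 lower in sh8 (0.96 ± 0.61, adjusted p = 0.378). With normexp background correction Dcn, Fmod, Ogn, Postn and Sparc passed as higher at day 0, as did 2301 of all 26460 tested, while 1181 passed as lower. With only probes well above background on all 8 arrays Dcn, Fmod, Postn and Sparc passed as higher, as did 953 of 19780, and 719 passed as lower.

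After induction, between day 0 and day +2, Ogn, Thbs1 and Fmod fell. That is 3 of the 10 genes, against 2.91% of all genes and transcripts, and 0 rose, against 8.99%. With only probes well above background on all 8 arrays, 1021 of 19780 fell and 1533 rose. In that set 4 of the 9 genes tested fell (Bgn, Fmod, Ogn and Thbs1) and 0 rose. Ogn fell by 3.26 in WT and by 3.66 in sh8, a fitted -3.46 ± 0.32 (11-fold lower, adjusted p = 0.0105). Thbs1 fell by 1.95 in WT and by 1.73 in sh8, a fitted -1.84 ± 0.36 (3.58-fold lower, adjusted p = 0.0396). The change of Fmod was -0.59 ± 0.13 (adjusted p = 0.0484). Ogn remained past the threshold under all 8 alternatives, with an adjusted p of at most 0.0368. Thbs1 did not pass with quantile scaling, with the authors' deposited values, without day +4 or without the filter on dim probes, and Fmod not without day -2, without day +4, with normexp or without that filter. Thbs2 was 1.05 ± 0.35 lower (adjusted p = 0.122), Bgn 0.78 ± 0.18 lower (adjusted p = 0.055) and Sparc 0.51 ± 0.14 lower (adjusted p = 0.0863). Sparcl1 was 0.81 lower in WT and 1.45 higher in sh8, and Lum 0.32 lower in WT and 1.09 higher in sh8. Day +2 and day 0 lie in different scans, so day and scan cannot be told apart. The lung epithelium, red blood cell and endothelial markers given above were higher on the arrays of the later scan, and their part in these differences was not tested.

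**Figure D3:**
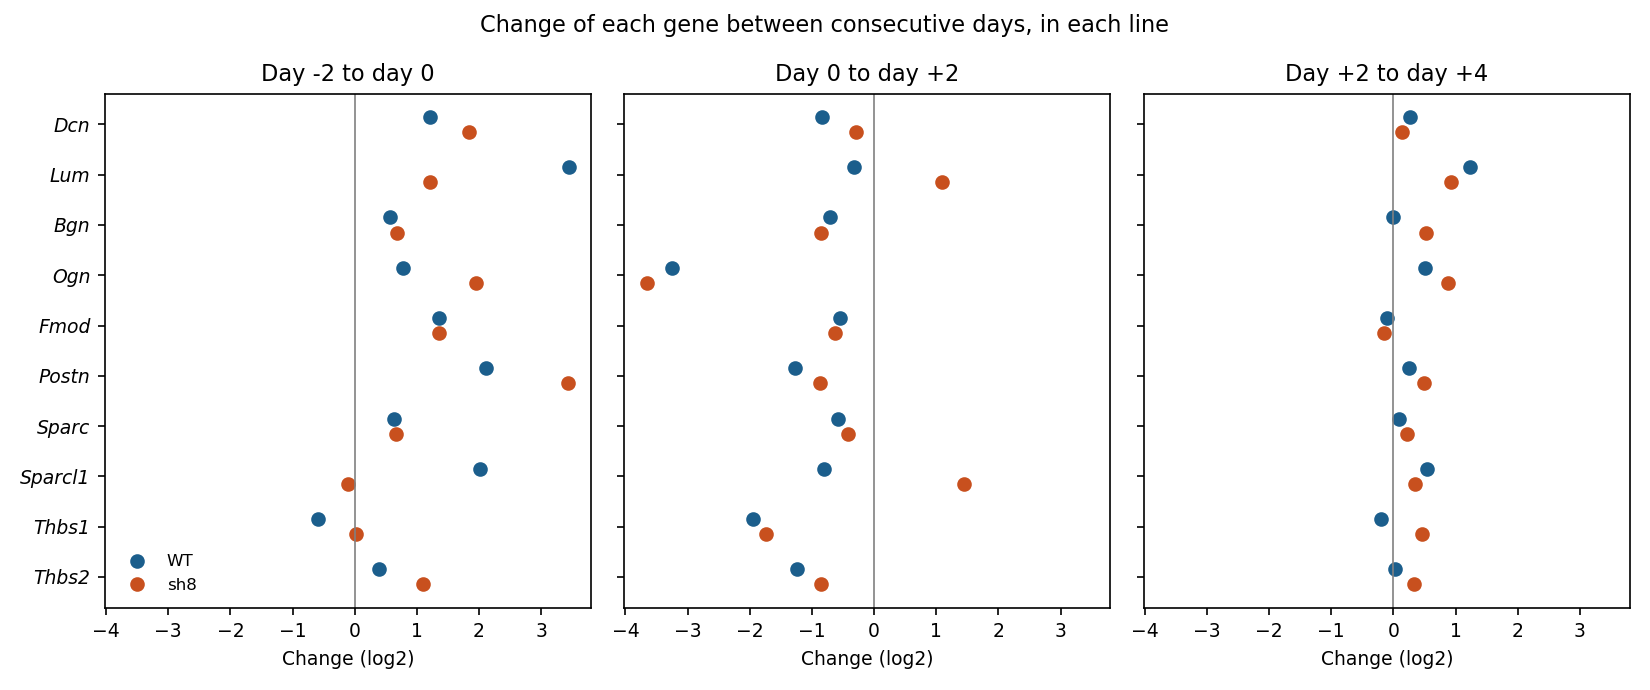
Change of each gene between consecutive days in each line (log2; 1 pair of arrays per point, WT in blue and sh8 in orange). Ogn and Thbs1 lie well below 0 in both lines from day 0 to day +2. Sparcl1 and Lum lie on opposite sides of 0 in the 2 lines at that step, and from day +2 to day +4 the points lie between -0.20 and 1.23.

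From day +2 to day +4 none of the 10 genes passed the test and none had an unadjusted p under 0.05. Of everything tested 0% passed, and 1441 of the 26460 had an unadjusted p under 0.05. Lum had the greatest difference, 1.08 ± 0.52 (adjusted p = 0.838), and was higher at day +4 in both lines. Ogn was 0.70 ± 0.32 higher (adjusted p = 0.838). Thbs1 was 0.20 lower at day +4 in WT and 0.46 higher in sh8.

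The genes whose levels ran most like those of each member were found by Pearson's r over the 8 arrays, among named genes well above background on all of them. These r values describe 8 arrays that share lines, days and scans. For Postn the most similar of 13782 genes was Dcn itself (r = 0.99), followed by Camk2g (0.989), a calmodulin-dependent kinase subunit. Dcn ran most like Wdr13 (0.995) and Kdm5a (0.991), a histone demethylase. Sparcl1 was followed by Oplah (0.993), an enzyme of glutathione metabolism, and Zswim7 (0.987). The level of Oplah was -2.68 to -1.90 in WT and -4.70 to -3.72 in sh8, so its lines did not overlap either. Nearest to Lum were Mrpl27 (0.988) and Trpm3 (0.985), to Bgn Mfsd2b (0.983) and C77080 (0.968), and to Ogn Arhgef10l (0.986) and Pcdhga9 (0.982). Fmod ran with Smad5 (0.968), a BMP signal transducer, and Kitl (0.961), Sparc with Rnase4 (0.983) and Gbp8 (0.977). Thbs1 was closest to Glt8d2 (0.985) and Rab7b (0.98), and Thbs2 to Dctn6 (0.976) and Tgtp1 (0.971).

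Related genes were counted in 6 lists for sh8 against WT, to be read against 16.8% higher and 10.3% lower among everything tested. Of 12 other small leucine-rich proteoglycans, 9 were tested, and 4 were higher in sh8 and 0 lower (median 0.40). Optc (opticin) was 1.39 ± 0.26 higher (adjusted p = 0.0248), Podnl1 0.56 ± 0.11 (adjusted p = 0.0259) and Chad (chondroadherin) 0.52 ± 0.10 (adjusted p = 0.0242). Podn was 0.92 ± 0.24 higher (adjusted p = 0.0488), but it was well above background on only 4 arrays. Of 20 other matricellular proteins tested, 2 were higher and 3 lower (median 0.01). Spp1 (osteopontin) was 1.49 ± 0.14 higher (adjusted p = 0.0103), with log2 levels of 2.04 to 3.48 in WT and 3.84 to 4.79 in sh8. Ccn4 was 0.69 ± 0.13 higher (adjusted p = 0.0268). Smoc2, which like Sparcl1 is a relative of SPARC, was 3.47 ± 0.37 lower in sh8 (11.1-fold, adjusted p = 0.0117). The WT levels of Smoc2 were -2.87 to -1.53 and the sh8 levels -6.30 to -4.76, without overlap, and the sh8 array of day 0 was not well above background. Smoc1 was 0.84 ± 0.09 lower (adjusted p = 0.0115), well above background on 5 arrays. The other lower gene was Tnn (tenascin N; -1.04, adjusted p = 0.0291).

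Enzymes that build glycosaminoglycan chains numbered 22, of which 1 was higher in sh8 and 3 lower (median 0.03). Chsy1 (chondroitin synthase 1; -0.79 ± 0.18, adjusted p = 0.0343), Csgalnact1 (-0.52 ± 0.09, adjusted p = 0.0218) and Csgalnact2 (-0.34 ± 0.09, adjusted p = 0.0469), which start or extend chondroitin chains, were lower. B4galt7, which adds the first galactose of the linker to the core protein, was higher (0.77 ± 0.18, adjusted p = 0.0365). Of 16 TGF-beta ligands, receptors and Smads, 6 were higher and 3 lower (median 0.16). The receptor Tgfbr2 (0.86 ± 0.11, adjusted p = 0.0137), the signal transducer Smad2 (1.04 ± 0.13, adjusted p = 0.0146) and the inhibitory Smad7 (0.79 ± 0.13, adjusted p = 0.0211) were higher. Ltbp2, a latent TGF-beta binding protein, was lower (-1.02 ± 0.15, adjusted p = 0.017).

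The receptors of thrombospondins, periostin and decorin numbered 22, with 5 higher and 2 lower in sh8 (median 0.31). Higher were the integrin subunits Itga3 (0.80 ± 0.10, adjusted p = 0.0137) and Itgb3 (0.98 ± 0.20, adjusted p = 0.0279). Stab1 (stabilin 1) was also higher, by 1.46 ± 0.18 (adjusted p = 0.0135), though well above background on 4 arrays. Lower was the scavenger receptor Scarb1 (-1.62 ± 0.17, adjusted p = 0.0115). Of 18 proteases that cleave such proteins, 5 were higher and 5 lower (median 0.02). The aggrecanase-type Adamts15 was 1.74 ± 0.12 higher (adjusted p = 0.00857). Adamts1 (-1.52 ± 0.16, adjusted p = 0.0115), Ctsk (cathepsin K; -1.46 ± 0.16, adjusted p = 0.0123) and the membrane-bound Mmp14 (-1.18 ± 0.10, adjusted p = 0.00981) were lower.

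**Figure D4:**
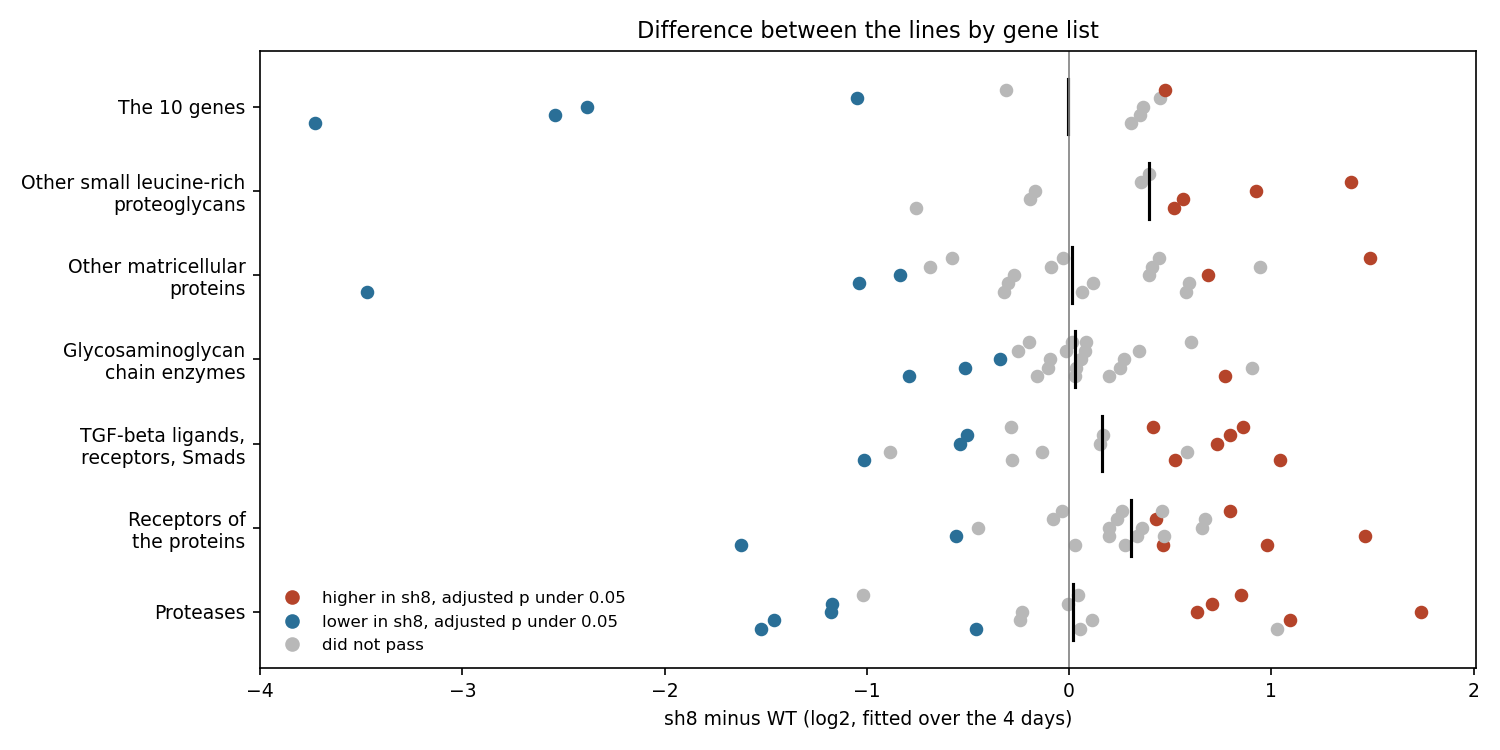
Fitted difference between sh8 and WT (log2) for each of the 10 genes and for the tested members of 6 related lists; 1 point per gene, red or blue where the adjusted p was under 0.05, and a black bar at the median of each list. The 10 genes reach from -3.73 to 0.48, and Smoc2 at -3.47 is the lowest point among the other matricellular proteins.

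Between day 0 and day +2, 4 of the 9 other small leucine-rich proteoglycans fell and 2 rose, where 2.91% of everything tested fell and 8.99% rose. Named after their values were seen, those that fell were Omd (osteomodulin; -2.97), Optc (-1.75), Aspn (asporin; -1.74) and Podnl1 (-0.88). Those that rose were Tsku (tsukushi; 1.04) and Podn. Podn passed the filter on dim probes only through the arrays of days +2 and +4, where it was high. Its call therefore adds nothing to the count of those that rose. Adjusted p was 0.0125 for Omd and 0.0353 for Aspn. Of 20 other matricellular proteins, 3 fell and 2 rose, and Thbs3 was among those that fell (-0.71, adjusted p = 0.0368). The glycosaminoglycan enzymes gave 0 calls at this step. Of these 22 enzymes 5 had an unadjusted p under 0.05, as did 8387 of all 26460 tested. Of 16 TGF-beta genes 3 fell and 0 rose, of 22 receptors 4 rose and 2 fell, and of 18 proteases 2 rose and 7 fell, again beside 8.99% and 2.91% of everything tested. In the steps from day -2 to day 0 and from day +2 to day +4, and in the change of the line difference, the 6 lists gave 0 calls by limma. Each list had 9 to 22 genes tested. At an unadjusted p under 0.05 the lists held 3 to 10, 0 to 2 and 2 to 6 genes in these 3 comparisons. Of all 26460 tested, 6726, 1441 and 5259 had such a p, in the same order.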

How the data were processed

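RNA of 8 samples was hybridised to 1-colour arrays. Per the file headers, the authors used Agilent Feature Extraction 11.0.1.1. Its deposited output holds, for every spot, the processed intensity and the median intensities of spot and background. The authors also deposited a log2 value table with a median of 6.381 in every column; each column correlated with its own array at r = 0.9936 or more, in the same direction, and no source used here states its scaling. The design text names another array maker than the files do.

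Control spots (1377 of 44397) were left out and repeat spots averaged, leaving 39429 probes, 46 of which were dropped for an outlier flag. RefSeq accessions, matched without versions to a GRCm38.p6 table, named 27207 probes and left 12176 unnamed; the file headers name mm9, so the only coordinates given are those of the RefSeq promoter windows. Values are log2 of the processed intensity minus the array's 75th percentile. The probe with the highest mean stood for a gene. limma 3.58.1 in R 4.3.3 was fitted over all 8 arrays with day and line (3 residual degrees of freedom), and with the interaction of line and days +2 and +4 added (2 degrees). The Benjamini-Hochberg adjustment covered 26460 genes and transcripts. The procedure was tested on simulated data. Nothing in the labels says that arrays come from separate cultures, so their spread may be technical.

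The 10 genes, the lists and the rule for naming genes were chosen with earlier results of these data known. The rule took all 10 genes and, from each list, up to 4 genes past the threshold for sh8 against WT with the lowest p; for each of the 10 it took the 2 genes with the highest r.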

Additional observations from a re-analysis of the deposited data

How the results depend on the processing

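For sh8 against WT, 5 of the 10 genes passed, and 1 (Sparcl1) with scan as a block. On the arrays of the earlier scan alone 0 passed, and on those of the later scan alone 3 (Lum, Postn and Sparcl1). Leaving out 1 day at a time gave 0 to 4 calls. Between day 0 and day -2 the count was 0, but 5 with normexp and 4 with probes well above background on all 8 arrays. Between day +2 and day 0 it was 3, but 1 without the filter on dim probes and 1 to 2 with 1 day left out. Signs turned only where no test passed. For the change of the line difference, Lum (0.14) gave -0.12 with quantile scaling, -0.47 with normexp, -0.12 with the authors' deposited values and -0.98 to 1.26 with 1 day left out. With 1 day left out that change ran from -0.22 to 0.95 for Ogn and from -0.091 to 0.43 for Bgn. For sh8 against WT, Thbs1 gave -0.059 on the earlier scan alone and Thbs2 0.13 on the later scan alone. Quantile scaling moved the median of everything tested from 0.13 to 0.02 for sh8 against WT. The split of calls there was 4437 higher and 2723 lower, 2642 and 2570 with quantile scaling, 2729 and 2622 with the authors' values. All calls together numbered 7160, but 81 without day 0 and 4212 without day -2. The count was 0 without day +2 (9445 at an unadjusted p under 0.05), 0 without day +4 (8653) and 0 within the earlier scan (8388). For day +2 against day 0 the split was 2378 higher and 769 lower, 1213 and 740 with quantile scaling, 1204 and 759 with the authors' values, 1510 and 1062 with normexp. With probes well above background on all 8 arrays it was 1533 and 1021 of 19780. The single-day counts, tried under other scalings after the data were seen, moved by at most 1 gene. The dim signals of Lum at day -2 and of Fmod limit what their values can show. The fit with day as a factor sets sh8 against WT within each day; a block on replicate number could not be added, since all 8 arrays are numbered 1.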
